A study of Mus musculus with 10 samples.

Results

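RNA levels of 9 regulatory T-cell genes were examined in whole thymus of mice with or without a hematopoietic deletion of Usp7. The genes were chosen by name: Foxp3, Ctla4, Ikzf2, Ikzf4, Tnfrsf18, Tnfrsf4, Tnfrsf9, Icos and Lrrc32. All 9 were found by their Ensembl identifiers among the 35375 features of the count table, and all 9 passed the filter on low counts that kept 19511 features for testing. The rule is a list of names and uses no measured value, though the list was drawn up with earlier results of these data known. The mice had the C57BL/6J background and were taken 3 days after birth. The groups were homozygous KO (both Usp7 alleles deleted in the hematopoietic system, n = 3 animals), heterozygous KO (1 allele deleted there, n = 3 animals) and wild type (n = 4 animals). The series counts 2 of the wild types as carrying cre and 2 as not carrying it. The titles and column names also split them 2 and 2 (replicates 1 and 2 have 2 wt words in the title, replicates 3 and 4 have 1), and neither says which form carries cre. The labels give no promoter for the cre. Which hematopoietic cells lost the gene, and how completely, is not given, and RNA of the whole thymus does not show it. A homozygous KO thymus also retains stromal cells, which are outside the hematopoietic system.

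Regulatory T cells restrain other T cells, and many of them are made in the thymus from CD4 thymocytes that meet self-antigen strongly. FOXP3 is the forkhead transcription factor that defines them. Signals from the T-cell receptor, CD28 and the interleukin-2 receptor induce its gene, and TNF receptors such as OX40 (Tnfrsf4) and GITR (Tnfrsf18) mark the precursors and help them mature. USP7 is a deubiquitinating enzyme that is known to remove ubiquitin from FOXP3 protein and so to stabilise it, a step that acts on protein and that RNA counts do not measure. Several of the 9 genes are also used outside this lineage. Ctla4, Icos, Tnfrsf4, Tnfrsf9 and Tnfrsf18 are induced in activated conventional T cells, and Ikzf2 is expressed in immature thymocytes.

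Promoter sequences are shown for Foxp3, the gene that defines the lineage, for Ctla4, the gene that was higher in homozygous KO, and for Tnfrsf4 and Tnfrsf18, neighbouring genes of chromosome 4 that were lower there. They were taken from RefSeq (build GRCm38.p6), run 5′ to 3′ (all 4 genes lie on the plus strand), and hold 250 bases before and 50 bases after the start of the transcript. Capitals mark 3 searched motifs on both strands, namely the forkhead core TGTTTA, the NFAT core GGAAA and the AP-1 site TGANTCA. No base was shared between matches of different motifs.
Foxp3, first start, chrX:7579426-7579725: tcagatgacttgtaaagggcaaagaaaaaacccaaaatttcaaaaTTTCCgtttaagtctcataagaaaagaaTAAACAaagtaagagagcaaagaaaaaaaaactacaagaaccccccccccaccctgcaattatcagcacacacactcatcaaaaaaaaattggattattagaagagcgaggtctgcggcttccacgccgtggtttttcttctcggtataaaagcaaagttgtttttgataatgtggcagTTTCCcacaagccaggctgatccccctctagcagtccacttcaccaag
Foxp3, second start, chrX:7580233-7580532: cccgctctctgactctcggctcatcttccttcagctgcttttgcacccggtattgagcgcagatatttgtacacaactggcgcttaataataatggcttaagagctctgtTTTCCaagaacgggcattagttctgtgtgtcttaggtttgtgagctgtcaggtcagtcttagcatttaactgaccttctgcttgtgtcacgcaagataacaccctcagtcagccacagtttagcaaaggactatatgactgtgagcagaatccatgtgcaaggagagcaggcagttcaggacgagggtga
Ctla4, chr1:60908775-60909074: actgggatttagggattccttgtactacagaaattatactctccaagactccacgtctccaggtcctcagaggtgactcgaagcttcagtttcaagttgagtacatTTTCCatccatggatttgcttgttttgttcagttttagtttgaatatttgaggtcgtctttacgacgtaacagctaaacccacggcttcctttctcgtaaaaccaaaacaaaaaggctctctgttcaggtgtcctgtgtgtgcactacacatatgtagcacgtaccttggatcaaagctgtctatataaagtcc
Tnfrsf4, chr4:156013445-156013744: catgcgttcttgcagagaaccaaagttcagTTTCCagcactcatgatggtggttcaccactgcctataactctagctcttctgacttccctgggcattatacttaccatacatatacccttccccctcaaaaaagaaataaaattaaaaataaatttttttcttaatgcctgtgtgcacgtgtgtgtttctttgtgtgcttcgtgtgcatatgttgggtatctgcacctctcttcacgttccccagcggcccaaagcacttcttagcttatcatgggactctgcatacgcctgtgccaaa
Tnfrsf18, chr4:156026072-156026371: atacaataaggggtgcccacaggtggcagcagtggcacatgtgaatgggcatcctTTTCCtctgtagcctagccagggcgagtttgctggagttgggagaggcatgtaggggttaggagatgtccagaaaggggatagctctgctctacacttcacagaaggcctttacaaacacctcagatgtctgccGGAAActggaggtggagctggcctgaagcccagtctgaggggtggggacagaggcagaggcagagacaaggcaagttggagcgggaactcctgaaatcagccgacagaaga
The first Foxp3 promoter held 1 forkhead core and 2 NFAT cores, and the second held 1 NFAT core. The Ctla4 and Tnfrsf4 promoters held 1 NFAT core each and the Tnfrsf18 promoter held 2. None of these 5 windows held the letters of the AP-1 site. Across all 32851 promoters of this length in the table, 13.4% held the forkhead core, 61.3% the NFAT core and 7.81% the AP-1 site, so an NFAT core in such a window is common. A match describes the letters and does not show that a factor binds there. Of the 9 genes, 5 had promoters in the table, Tnfrsf9 being the other one. Ikzf2, Ikzf4, Icos and Lrrc32 were not in it.

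Library totals ranged from 39.8 to 122.4 M counts, and the shallowest libraries were wild types. Counts are given below as CPM, counts scaled by TMM to a common library total, and a gene is said to be called, or to have risen or fallen, where edgeR's quasi-likelihood test over all 10 libraries gave an adjusted p under 0.05 (Benjamini-Hochberg over the 19511 features). A count of 3, taken as the limit that a count of 0 allows, was 0.0737 CPM in the smallest library and 0.0260 CPM in the largest, and it covers counting error only. Foxp3 had between 119 and 561 counts per library, so every library was well above that limit. Usp7 itself checked the labels: it had 589 to 677 CPM in wild type, 472 to 516 in heterozygous KO and 303 to 422 in homozygous KO, 3 ranges that did not overlap. Within wild type, Usp7 had 677 and 670 CPM in replicates 1 and 2. It had 594 and 589 CPM in replicates 3 and 4, whose column names add het. Its homozygous KO mean remained well above 0, and the counts do not show which exons the reads came from. Homozygous KO libraries stood apart widely: 25.8% of all tested features were called against wild type (12.5% higher and 13.2% lower) and 17.1% against heterozygous KO (7.63% higher and 9.5% lower). In heterozygous KO against wild type, 0.0154% were called, all higher. Scaling by library totals alone gave a different split, with 29.0% of the calls against wild type higher instead of 48.6%, and 26.9% of those between the knockouts instead of 44.6%. Rag1, which makes the breaks of receptor gene recombination in thymocytes, had 6301 CPM in wild type. The comparisons share libraries, since homozygous KO enters 2 of them and wild type 2.

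Among the 9 genes, 6 were called in homozygous KO against wild type, 5 lower (Foxp3, Icos, Tnfrsf4, Tnfrsf18 and Ikzf4) and 1 higher (Ctla4), beside 25.8% of all tested features. The median log2 fold change of the 9 was -0.63, and that of all tested features was -0.01. Between the knockouts 5 were called, 4 lower (Foxp3, Icos, Tnfrsf4 and Tnfrsf18) and 1 higher (Ctla4), beside 17.1% of all tested features. In heterozygous KO against wild type 0 of 9 were called by edgeR or by DESeq2, and 0 had an unadjusted p under 0.05 in edgeR, beside 7.28% of all tested features. The levels of 6 genes did not overlap between homozygous KO and wild type, as for 32.7% of all tested features. Between the knockouts 7 did not overlap, as for 33.3% of all tested features.

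**Figure D1:**
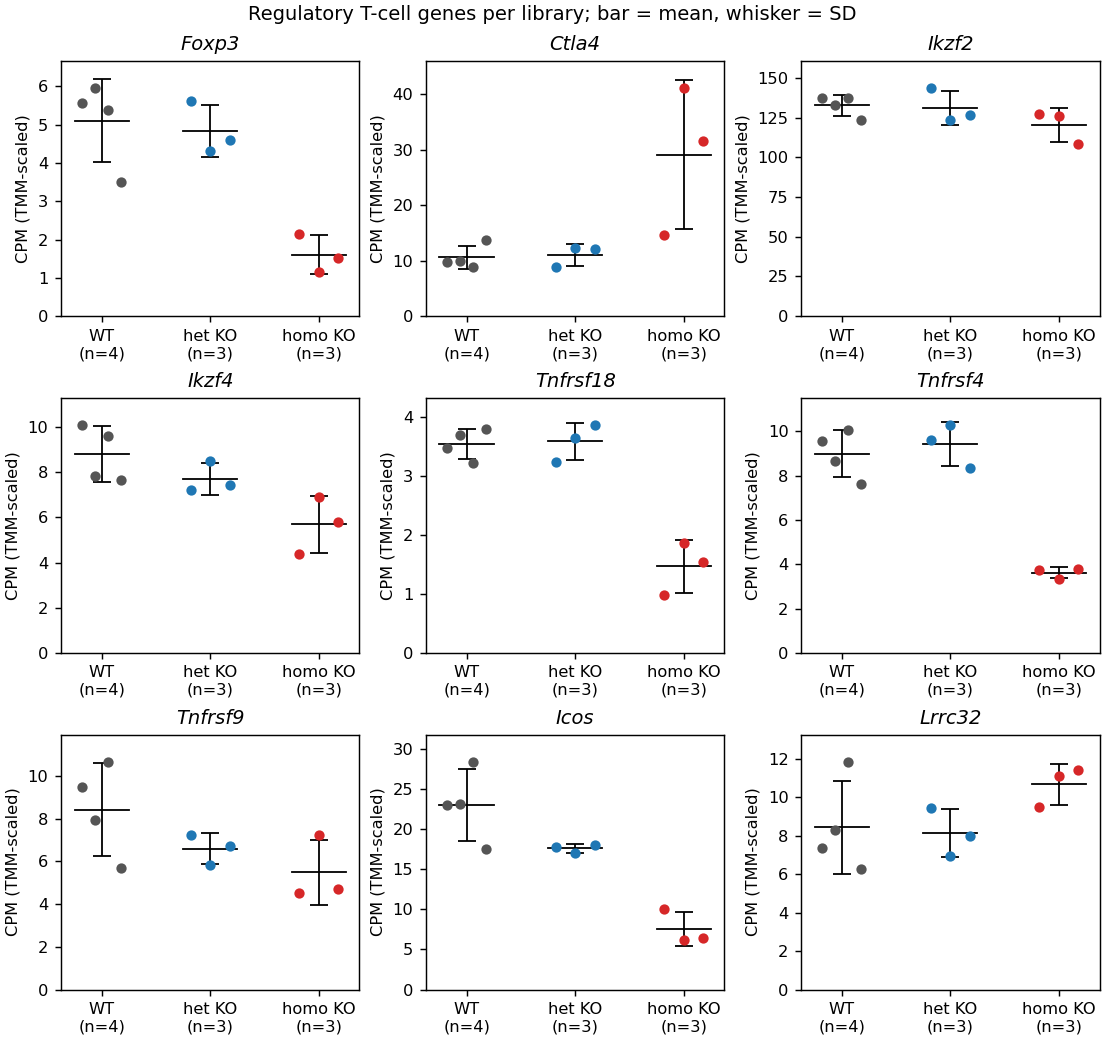
Each panel plots 1 gene in TMM-scaled CPM (linear axis from 0) for 4 wild-type (WT), 3 heterozygous KO (het KO) and 3 homozygous KO (homo KO) libraries. Points are libraries, the long bar is the mean and the whisker the SD. The homozygous KO points lie below all others for Foxp3, Tnfrsf18, Tnfrsf4, Icos and Ikzf4, and above all others for Ctla4.

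Foxp3 RNA fell in homozygous KO. The 4 wild-type libraries had 5.57, 5.95, 5.39 and 3.51 CPM. The 3 heterozygous KO libraries had 5.61, 4.30 and 4.61 CPM, inside the wild-type range. The 3 homozygous KO libraries had 2.15, 1.16 and 1.51 CPM, each below every other library. The difference of homozygous KO from wild type was -1.66 on the log2 scale (SE 0.25, edgeR adjusted p 0.000678), so that 31.6% of the wild-type level remained. Against heterozygous KO it was -1.59 (SE 0.26, edgeR adjusted p 0.0016). An exact two-sided permutation test of mean log2 CPM gave p = 0.0286 against wild type, the smallest that 35 splits of 7 libraries allow, and p = 0.1 between the knockouts, the smallest that 3 against 3 allows. For heterozygous KO against wild type the log2 fold change was -0.07 with a 95% interval of -0.59 to 0.44, which leaves room for a loss of up to -0.59 or a gain of up to 0.44. The animals fell into a block numbered 44 to 51 and a block numbered 56 to 63, a split that had been noticed in these data. The Foxp3 difference between homozygous KO and wild type was -1.39 (1 library against 3) in the first block and -1.40 (2 against 1) in the second. The labels give no sex. By Xist and Ddx3y counts, 3 wild types and 1 homozygous KO were female and the other libraries male, and the Foxp3 difference was -1.67 among females and -1.81 among males, each with an arm of 1 library. In whole-thymus RNA, fewer regulatory T cells and less Foxp3 RNA per cell cannot be told apart, which holds for every gene described here.

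The annotation places Foxp3 on chromosome X, where its exons overlap those of Flicr on the same strand and those of Ccdc22 and Gm36995 on the other strand. How reads shared by overlapping genes were counted is not given in the sources used here, nor is the strand setting. The Foxp3 level carries that uncertainty in every group, and whether to the same extent was not tested. Ccdc22, which encodes a subunit of an endosomal sorting complex, was listed at 0 in all 10 libraries.

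Of the Ikaros-family genes, Ikzf4 fell in homozygous KO and Ikzf2 was not called. Ikzf2 encodes HELIOS, a zinc-finger factor of regulatory T cells and immature thymocytes. It had 137, 133, 137 and 123 CPM in wild type, 143, 124 and 127 in heterozygous KO and 127, 126 and 108 in homozygous KO. The groups overlapped, and the log2 fold change of homozygous KO against wild type was -0.14 (95% interval -0.30 to 0.02, edgeR adjusted p 0.187). Its call depended on scaling, since library totals alone gave -0.24 with an edgeR adjusted p of 0.0327. Ikzf4 encodes EOS, a related factor that takes part in repression by FOXP3. Its levels were 10.1, 7.82, 9.63 and 7.64 CPM in wild type, 7.20, 8.51 and 7.42 in heterozygous KO and 4.38, 6.89 and 5.82 in homozygous KO. All 3 homozygous KO libraries lay below the others, replicate 2 only narrowly. Ikzf4 fell by 0.63 on the log2 scale against wild type (SE 0.17, edgeR adjusted p 0.0177), and the difference from heterozygous KO was -0.44 (SE 0.18, edgeR adjusted p 0.122). The Ikzf4 call was lost without wild type replicate 1 (edgeR adjusted p 0.05025) and without homozygous KO replicate 1 (0.05022). It was also lost when only the wild types with 2 wt words in the title (0.0543) or only those with 1 such word (0.09006) served as controls, and over all alternatives its adjusted p lay between 0.00163 and 0.0901. Within the animal blocks the Ikzf4 difference from wild type was -1.06 in the first and -0.27 in the second. Ikzf2 and Ikzf4 both have annotated antisense genes over their exons.

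Ctla4 rose in homozygous KO. It encodes the inhibitory receptor that competes with CD28 for CD80 and CD86, is a direct target of FOXP3, and is held at a high level by regulatory T cells. Wild-type libraries had 9.82, 9.97, 8.86 and 13.7 CPM. Heterozygous KO libraries had 8.81, 12.2 and 12.1 CPM, within the wild-type range except for replicate 1, which was just below it. Homozygous KO libraries had 14.6, 41.0 and 31.6 CPM, so replicate 1 lay close to wild type replicate 4 and the other two far above every library. The log2 fold change was 1.46 against wild type (SE 0.28, edgeR adjusted p 0.00346) and 1.40 against heterozygous KO (SE 0.31, edgeR adjusted p 0.00959). With only the wild types that have 1 wt word in the title as controls it was 1.37 and no longer called (edgeR adjusted p 0.0519), and over all alternatives the adjusted p against wild type lay between 1.05e-06 and 0.0519. The homozygous KO difference was 0.62 in the animal block from 44 to 51 and 1.40 in that from 56 to 63. Among females it was 1.57 and among males 1.32. In heterozygous KO the log2 fold change was 0.06 (95% interval -0.57 to 0.69).

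Icos moved the opposite way. It encodes the inducible costimulator, a CD28 relative that supports T cells after activation. The wild-type libraries had 23.0, 23.1, 28.3 and 17.5 CPM, and the heterozygous KO libraries 17.7, 17.0 and 18.1 CPM, at or near the bottom of that range. Homozygous KO libraries had 10.04, 6.20 and 6.45 CPM, all below the others. Icos fell by 1.60 on the log2 scale against wild type (SE 0.19, edgeR adjusted p 0.000146) and by 1.22 against heterozygous KO (SE 0.20, edgeR adjusted p 0.00155). In heterozygous KO the difference from wild type was -0.39 (95% interval -0.78 to 0.01), with an unadjusted p of 0.0566 and an adjusted p of 0.693 in edgeR. Within the animal blocks the homozygous KO difference was -1.30 and -1.47.

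Ctla4 and Icos lie beside Cd28 on chromosome 1, and the 3 neighbours changed in different directions. Cd28, the costimulatory receptor of resting T cells, had 236 ± 12.03 CPM (SD, n = 4) in wild type, 210 ± 6.94 (SD, n = 3) in heterozygous KO and 129 ± 14.1 (SD, n = 3) in homozygous KO. It fell by 0.87 on the log2 scale against wild type (SE 0.07, edgeR adjusted p 1.25e-05). Ctla4 rose in the libraries in which Cd28 and Icos fell. Per Foxp3 count there were 1.76, 1.68, 1.64 and 3.90 Ctla4 counts in wild type, 1.57, 2.83 and 2.63 in heterozygous KO, and 6.79, 35.2 and 20.9 in homozygous KO. These ratios were not tested, since they restate the values of the genes above.

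**Figure D2:**
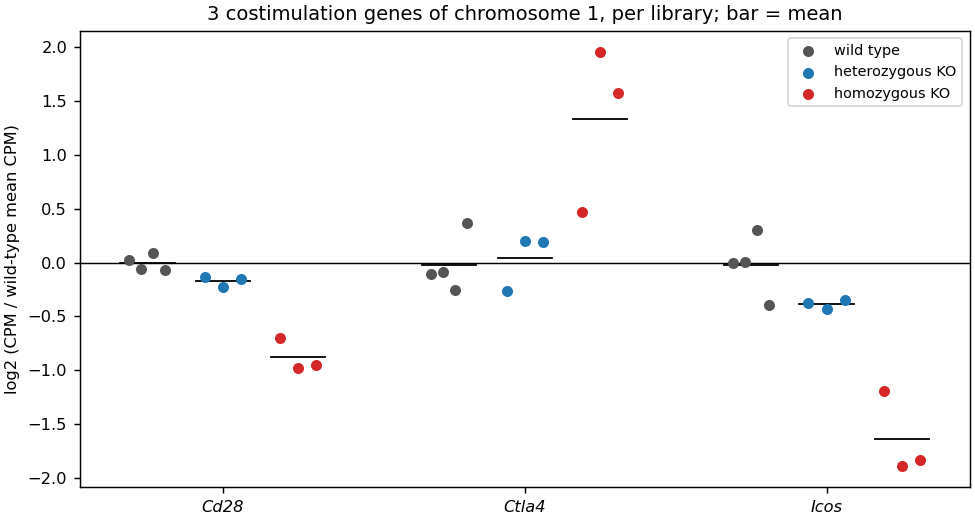
The vertical axis is log2 of CPM over the wild-type mean CPM, for Cd28, Ctla4 and Icos in each library, coloured by group, and the bar is the group mean. In the 3 homozygous KO libraries Cd28 and Icos lie below 0 and Ctla4 above 0, with Ctla4 of replicate 1 (14.6 CPM) nearest to wild type.

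Of the 3 TNF receptor genes, Tnfrsf4 and Tnfrsf18 fell and Tnfrsf9 was not called. Tnfrsf4 encodes OX40, a costimulatory receptor of activated and regulatory T cells. It had 9.58, 8.67, 10.1 and 7.64 CPM in wild type, 9.62, 10.3 and 8.33 in heterozygous KO and 3.76, 3.35 and 3.77 in homozygous KO. The homozygous KO libraries were close together and below all others. The log2 fold change was -1.31 against wild type (SE 0.13, edgeR adjusted p 4.41e-05) and -1.38 against heterozygous KO (SE 0.14, edgeR adjusted p 6.58e-05), the smallest adjusted p-values among the 9 genes in both comparisons. In heterozygous KO it was 0.07 (95% interval -0.21 to 0.34). The difference between homozygous KO and wild type was -1.32 in the first animal block and -1.10 in the second.

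Tnfrsf18 encodes GITR, which regulatory T cells and their precursors carry at high levels. Wild-type libraries had 3.46, 3.68, 3.21 and 3.79 CPM, heterozygous KO libraries 3.24, 3.64 and 3.86, and homozygous KO libraries 0.981, 1.87 and 1.54. The homozygous KO libraries lay below all others. Tnfrsf18 fell by 1.27 on the log2 scale against wild type (SE 0.21, edgeR adjusted p 0.00136) and by 1.29 against heterozygous KO (SE 0.22, edgeR adjusted p 0.00224). The heterozygous KO difference from wild type was 0.02 (95% interval -0.43 to 0.47). Within the animal blocks homozygous KO differed from wild type by -1.81 and -1.15. An antisense gene, Gm16008, overlaps its exons and had at most 47 counts in a library, against 113 or more for Tnfrsf18.

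Tnfrsf9 encodes 4-1BB, a receptor of recently activated T cells. It had 9.48, 7.92, 10.7 and 5.67 CPM in wild type, 7.25, 5.85 and 6.72 in heterozygous KO and 4.51, 7.25 and 4.73 in homozygous KO. All 3 groups overlapped, since wild type replicate 4 was low and homozygous KO replicate 2 high for its group. The log2 fold change of homozygous KO against wild type was -0.62 (95% interval -1.11 to -0.12), with an unadjusted p of 0.0197 and an adjusted p of 0.0681 in edgeR. It was called without wild type replicate 4 (-0.77, edgeR adjusted p 0.0173), without homozygous KO replicate 2 (-0.86, 0.023), in DESeq2 (-0.61, 0.0275) and with library totals alone (-0.71, 0.042). Its adjusted p over all alternatives lay between 0.0173 and 0.242. Within the animal blocks the difference was -1.04 and 0.05.

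Lrrc32 encodes GARP, which holds latent TGF-beta on the surface of activated regulatory T cells and is also present in endothelium and platelets. The wild-type libraries had 7.34, 8.28, 11.8 and 6.24 CPM, the heterozygous KO libraries 9.43, 6.95 and 7.95, and the homozygous KO libraries 9.46, 11.1 and 11.4. Wild type replicate 3 alone was above the homozygous KO libraries. The log2 fold change against wild type was 0.34 (95% interval -0.10 to 0.77, edgeR adjusted p 0.24), and without that library it was 0.55 and called (edgeR adjusted p 0.0269). Over all alternatives its adjusted p lay between 0.0269 and 0.609. Against heterozygous KO it was 0.39 (95% interval -0.07 to 0.86, edgeR adjusted p 0.252). Of 9 tested endothelial markers, 2 rose, Tie1 (log2 fold change 2.50) and Vwf (2.35), and 1 fell, Egfl7 (-0.59), against wild type. Over all tested features 12.5% were higher and 13.2% lower. The median log2 fold change of the 9 markers was 0.80. Their summed level was 147 to 161 CPM in wild type and 154 to 167 in homozygous KO. Most of that sum was Pecam1, with 141 to 154 CPM in wild type and 148 to 154 in homozygous KO. Homozygous KO replicate 2 stood apart for both risen genes, with 3.64 CPM of Vwf against 0.625 and 0.709 in replicates 1 and 3, and 1.85 CPM of Tie1 against 0.443 and 0.554. Without it neither was called, at log2 fold changes of 1.05 for Vwf (edgeR adjusted p 0.162) and 1.56 for Tie1 (0.145). Of 4 tested megakaryocyte and platelet markers 2 fell, among them Pf4 (-1.86), and 0 rose, with sums of 3.88 to 5.01 and 2.73 to 3.35 CPM. The part of those cells in the Lrrc32 level was not tested.

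**Figure D3:**
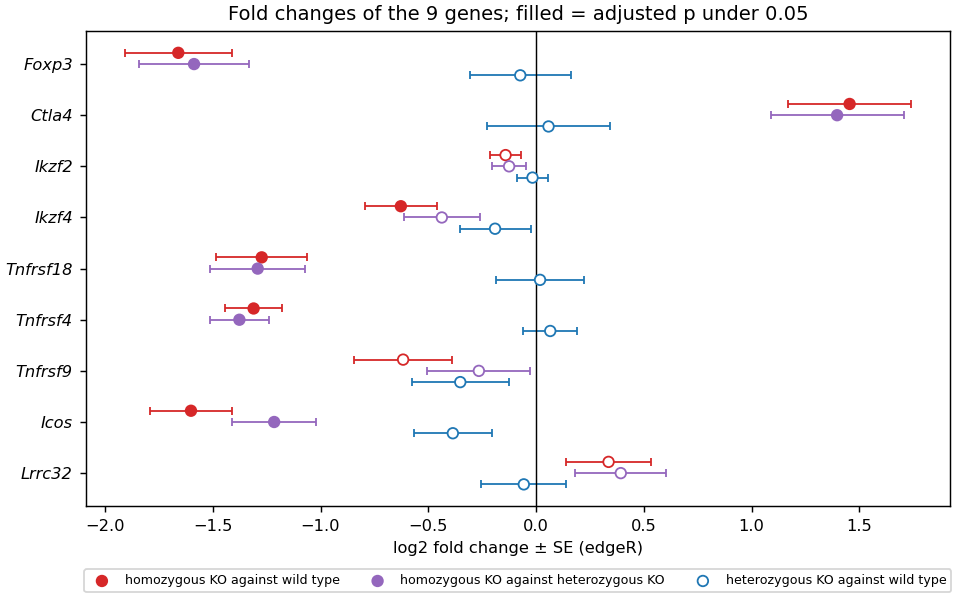
The horizontal axis is the edgeR log2 fold change of each of the 9 genes with its SE (whisker), coloured by comparison, and a filled point has an adjusted p under 0.05. Foxp3, Tnfrsf18, Tnfrsf4 and Icos lie between -1.22 and -1.66 and Ctla4 lies at 1.40 and 1.46 in both comparisons of homozygous KO, and no point is filled for heterozygous KO against wild type.

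Levels were ordered between genes per kilobase of annotated exon. Mean CPM per kb in wild type was 13.9 for Ikzf2, 8.73 for Tnfrsf4, 6.70 for Icos, 5.47 for Ctla4, 3.39 for Tnfrsf9, 2.81 for Tnfrsf18, 1.84 for Lrrc32, 1.51 for Ikzf4 and 1.25 for Foxp3. Foxp3 was therefore the lowest of the 9 per length. Between neighbours of this order the library ranges were apart only for Ikzf2 over Tnfrsf4 and for Ctla4 over Tnfrsf9. In homozygous KO the mean of Ctla4 was first with 15.0 CPM per kb (libraries from 7.57 to 21.2), overlapping Ikzf2 with 12.6 (11.3 to 13.3). Tnfrsf4 with 3.52 and Lrrc32 with 2.33 followed, the Icos mean had dropped to 2.21, and Foxp3 remained last with 0.392 (0.284 to 0.525).

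Whether Foxp3 fell with the mature T cells of the thymus or beyond them was asked by setting its log2 CPM against the mean log2 CPM of 12 genes of mature single-positive thymocytes. Of these 12 genes 8 fell and 0 rose in homozygous KO against wild type, beside 13.2% of all tested features lower. Their median log2 fold change was -1.52, beside -0.01 over all tested features. The 4 with the largest falls were Ccr7 (-2.96) and S1pr1 (-2.12), which guide thymocytes to the medulla and out of the thymus, Ms4a4b (-2.07), and Il7r (-1.97), the interleukin-7 receptor. Their summed level was 981 to 1179 CPM in wild type, 936 to 1057 in heterozygous KO and 689 to 778 in homozygous KO. Relative to the 12 genes, Foxp3 was at -3.75 ± 0.34 (SD, n = 4, log2) in wild type, -3.76 ± 0.29 (SD, n = 3) in heterozygous KO and -4.03 ± 0.31 (SD, n = 3) in homozygous KO. The groups overlapped, and the difference of homozygous KO from wild type was -0.28 (exact two-sided permutation p = 0.343). That p does not show that both fell alike. Between the knockouts the difference was -0.27 (exact permutation p = 0.4, smallest possible 0.1), and heterozygous KO differed from wild type by -0.0046 (exact permutation p = 0.971). The size of the difference depended on the reference. Relative to Cd3e, a receptor subunit of all T cells, Foxp3 differed by -1.60 between homozygous KO and wild type, and relative to Cd4 by -1.84 (exact permutation p = 0.0286 for each, the smallest possible). Cd4, also a marker of double-positive thymocytes, had 614 to 746 CPM in wild type and 696 to 766 in homozygous KO. Both values lie near the difference of Foxp3 alone (-1.68 in mean log2 CPM). Neither reference is limited to mature cells, so they do not answer the question.

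**Figure D4:**
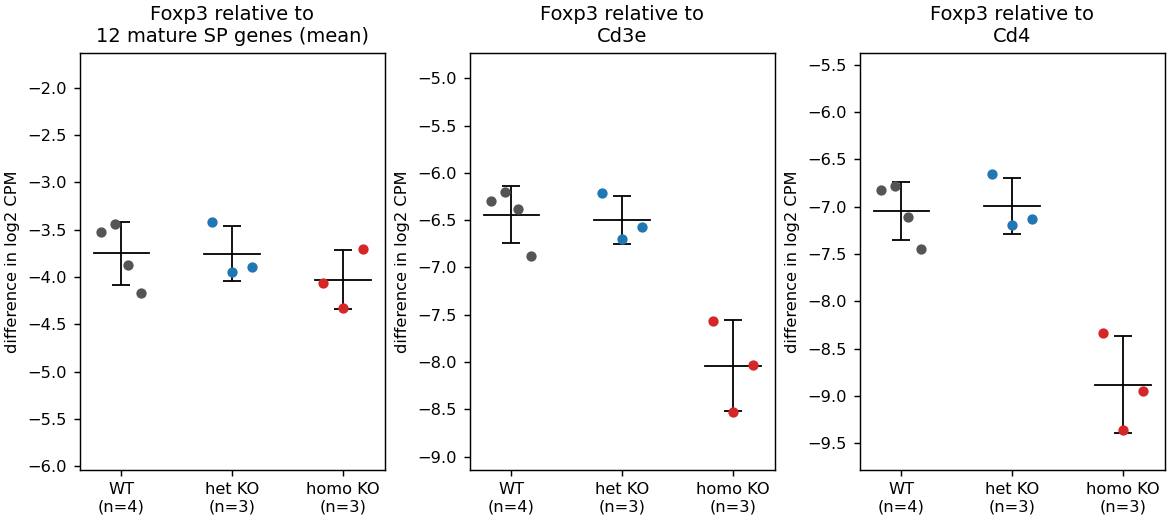
The vertical axis of each panel is log2 CPM of Foxp3 minus that of a reference: the mean of 12 mature single-positive (SP) genes, Cd3e or Cd4. Points are libraries, the bar is the mean and the whisker the SD, and the axes span equal ranges. Homozygous KO overlaps the other groups against the 12 genes (difference -0.28 from wild type) and lies below them against Cd3e (-1.60) and Cd4 (-1.84).

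The features whose profile over the 10 libraries was most like that of Foxp3 were sought among 11761 features with a mean CPM of at least 1, by the root mean square difference of log2 CPM centred on each gene's mean. The nearest were Itga4 (0.151), an integrin subunit, Slc16a7 (0.175), a monocarboxylate transporter, Zfp518a (0.178), a zinc-finger protein, and the peptidylarginine deiminases Padi3 (0.197) and Padi4 (0.211). Against wild type, their log2 fold changes in homozygous KO were -1.78, -1.83, -1.71, -1.77 and -1.88 in that order. Of the other 8 regulatory T-cell genes, Icos (0.222) and Tnfrsf4 (0.287) were nearest to Foxp3, followed by Tnfrsf18 (0.512), Ikzf4 (0.648), Tnfrsf9 (0.669), Ikzf2 (0.742), Lrrc32 (0.988) and Ctla4 (1.52). These differences are descriptions over the same 10 libraries.

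Among the ligands of these receptors, 2 fell and 2 rose of 5 tested in homozygous KO against wild type, and 0 were called in heterozygous KO. Over all tested features 13.2% were lower and 12.5% higher in homozygous KO against wild type. Icosl, the ligand of ICOS, fell from 3.54 ± 0.67 CPM (SD, n = 4) to 0.780 ± 0.161 (SD, n = 3), a change of -2.18 on the log2 scale (SE 0.22, edgeR adjusted p 4.62e-05). Cd86, a ligand shared by CD28 and CTLA4, fell from 5.36 ± 0.46 to 1.59 ± 0.19 CPM, a change of -1.75 on that scale (SE 0.17, edgeR adjusted p 3.49e-05). Cd80, the other shared ligand, rose from 1.93 ± 0.41 to 3.00 ± 0.36 CPM (log2 fold change 0.64, edgeR adjusted p 0.0397), so the pair moved in opposite directions. The Cd80 call was lost in 5 of the 7 fits that left out 1 library. Tnfsf4, the OX40 ligand, was scarce, with 0.0675 to 0.0982 CPM in wild type, 0.25 to 0.262 in heterozygous KO and 0.321 to 0.518 in homozygous KO. It rose in homozygous KO (log2 fold change 2.34, edgeR adjusted p 0.00054), and in heterozygous KO its log2 fold change of 1.59 had an unadjusted p of 0.00074 and an adjusted p of 0.511 in edgeR. Tnfsf9, the 4-1BB ligand, had 1.13 ± 0.05 CPM in wild type and 1.10 ± 0.29 in homozygous KO. Tnfsf18, the GITR ligand, had at most 7 counts in a library and was not tested.

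Antigen-presenting cells are a main source of CD80, CD86 and ICOSL, and their markers moved in the same libraries. Of 12 dendritic cell markers 12 fell in homozygous KO against wild type. For this list and those that follow, 13.2% of all tested features were lower and 12.5% higher. The summed level of the dendritic cell markers was 180 to 246 CPM in wild type, 195 to 284 in heterozygous KO and 63.1 to 123 in homozygous KO. Most of that sum was Cd74, H2-Aa and H2-Ab1. Cd74 alone had 81.4 to 111 CPM in wild type and 27.5 to 58.0 in homozygous KO. The largest falls were those of Siglech (at least 74.9-fold) and Cd209a (at least 5.76-fold), both at 3 counts or fewer in every homozygous KO library, with Ccl22 (log2 fold change -4.28) and Flt3 (-3.64). Ccl22 attracts cells that carry CCR4. Of 9 B-cell markers 8 fell, with sums of 34.9 to 56.98 CPM in wild type and 7.72 to 10.1 in homozygous KO. Among them Ms4a1 fell at least 151-fold and was at 3 counts or fewer in every homozygous KO library, and the log2 fold changes of Pax5 and Cd22 were -5.54 and -4.59. Of 12 macrophage and neutrophil markers 5 fell, led by C1qa (-2.37), C1qb (-1.54), Csf1r (-1.45) and Adgre1 (-1.30), and 3 rose, Ltf (3.89), S100a8 (3.78) and S100a9 (3.59), with sums of 80.6 to 97.5 CPM in wild type and 74.5 to 270 in homozygous KO. Of 9 tested thymic epithelial markers 1 fell, Aire (-2.37), which drives self-antigens in the medulla, and 1 rose, Krt5 (2.77), with sums of 112 to 166 and 118 to 238 CPM. The part of these cells in the ligand levels was not tested.

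Other surface and effector genes of regulatory T cells fell or were not called. Of 21 tested, 13 fell and 0 rose in homozygous KO against wild type, with a median log2 fold change of -0.62, beside 13.2% of all tested features lower and a median of -0.01. The 4 largest falls were those of Ccr8 (-3.04), a chemokine receptor of activated regulatory T cells, Itgb8 (-2.48), an integrin subunit that activates TGF-beta, Plagl1 (-2.43), a zinc-finger factor, and Ccr4 (-1.62), the receptor of CCL22. Against heterozygous KO 9 fell and 0 rose. Of these, the call of Capg was lost in 6 of the 6 fits that left out 1 library, and that of Entpd1 in 5. Il2ra, the alpha chain of the interleukin-2 receptor, was chosen for description after its values were seen. It had 223, 208, 233 and 127 CPM in wild type, 184, 130 and 177 in heterozygous KO and 68.5, 289 and 162 in homozygous KO. The homozygous KO libraries spanned the whole range of the others, and the difference of the means was -0.19 on the log2 scale (SE 0.37, edgeR adjusted p 0.742).

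Upstream of Foxp3, 7 of 27 inducer genes fell and 0 rose in homozygous KO against wild type, beside 13.2% of all tested features lower and 12.5% higher, with a median log2 fold change of -0.07. The largest falls were those of Nr4a3 (-1.89), a nuclear receptor induced by T-cell receptor signals, Cd28 (-0.87), Il2rg (-0.38), the common cytokine receptor chain, and Tgfbr2 (-0.35), a TGF-beta receptor. Of 13 T-cell activation genes 7 fell and 2 rose, beside the same 13.2% lower and 12.5% higher. Cd40lg (-2.87), Egr2 (-2.19), Egr3 (-2.07) and Egr1 (-1.41) had the largest falls, the latter 3 being transcription factors induced by receptor signals, and Xcl1 (1.10) and Bcl2l11 (0.38) rose. The median log2 fold change of the activation genes was -0.92. Of 5 tested cytokines of regulatory T-cell development, Il15 fell (-1.61) and Tgfb2 rose (1.48), and Il2 had at most 7 counts in a library and was not tested.

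Among 19 nuclear partners of FOXP3 and relatives of Ikzf2, 5 fell and 3 rose against wild type, beside 13.2% of all tested features lower and 12.5% higher. Bach2 (-2.54), a repressor that keeps T cells from effector fates, Hdac9 (-2.06), a histone deacetylase, Irf4 (-1.38) and Batf (-0.65), a pair of factors of activated and effector regulatory T cells, had the largest falls. Runx3 (0.50), Ezh2 (0.46) and Yy1 (0.24) rose, and against heterozygous KO Hdac7 (0.24) was called higher too. Of 7 enzymes that add or remove ubiquitin, listed for a possible action on FOXP3, Cblb (-0.45) and Nedd4 (-0.32) fell and Usp44 (0.53) rose. The same 13.2% of all tested features were lower and 12.5% higher. Whether each of the 7 acts on FOXP3 was not tested. Usp7 (-0.75), also among the 7, fell as the gene deleted by design. Of 20 other tested genes of the TNF receptor superfamily 6 fell and 3 rose, beside the same 13.2% lower and 12.5% higher. Ngfr (-3.38), Cd40 (-2.07), Tnfrsf19 (-1.96) and Tnfrsf14 (-1.05) had the largest falls. Eda2r rose at least 78.1-fold from a wild-type level of at most 3 counts a library, and Tnfrsf8 (1.05), which encodes CD30, and Fas (0.39) rose as well.

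The remaining marker lists were counted, beside 13.2% of all tested features lower and 12.5% higher in homozygous KO against wild type. Of 11 markers of double-positive thymocytes, the main cell type of the thymus, Rag1 (-0.85), Dntt (-0.46) and Cd1d1 (-0.26) fell and Arpp21 (0.38) and Cd8a (0.26) rose. Against heterozygous KO, Cd4 (0.27) was called higher too. Of 11 tested markers of innate-like and gamma-delta lymphocytes 6 fell and 0 rose, led by Eomes (-3.11), Il23r (-2.49), Ncr1 (-1.73) and Zbtb16 (-1.59), and Tcrg-C1 (1.02) was called higher against heterozygous KO. In heterozygous KO against wild type 0 genes of any list were called by edgeR, beside 3 of all tested features, and those at an unadjusted p under 0.05 numbered 0 to 3 per list.

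How far these lists rested on single libraries was asked by leaving out each library in turn, a step chosen after the data were seen. Besides Ikzf4, Tie1 and Vwf, the genes with a fold change above that lost their call against wild type did so in 1 to 6 of the 7 fits. The call was lost in 6 of the 7 for Tgfb2 and Cd1d1, and in 5 for Cd80, Bcl2l11 and Dntt. It was lost in 4 for Usp44, Il15, Egfl7 and Pf4, in 3 for Yy1 and in 1 for Il23r. Their directions held, and the highest adjusted p of edgeR was 0.111 for Cd80, 0.09 for Il15 and 0.167 for Tgfb2. Some genes that the lists count but whose fold change was not given above lost their call in the same way. Of the other regulatory T-cell genes these were Izumo1r, Nrp1, Nt5e, Lag3, Capg and Cd83. On other lists they were the dendritic cell markers Zbtb46 and H2-Ab1, with Tnfrsf11a, Tnfrsf23 and Nkg7. The calls of Cd4 and Tcrg-C1 against heterozygous KO were lost without 5 of 6 libraries each. Homozygous KO replicate 1 was nearer to wild type than the other two for several genes that fell. Without it the log2 fold change against wild type was -5.02 for Ccr7, -3.10 for Ms4a4b, -2.77 for S1pr1, -4.44 for Ccr8, -4.06 for Cd40lg, -2.80 for Egr3, -2.71 for Hdac9, -3.74 for Il23r and -7.55 for Pax5. Without homozygous KO replicate 2 it was 2.93 for S100a8, 2.75 for S100a9 and 3.24 for Ltf, without homozygous KO replicate 3 it was 2.09 for Krt5, and all of these remained called.

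**Figure D5:**
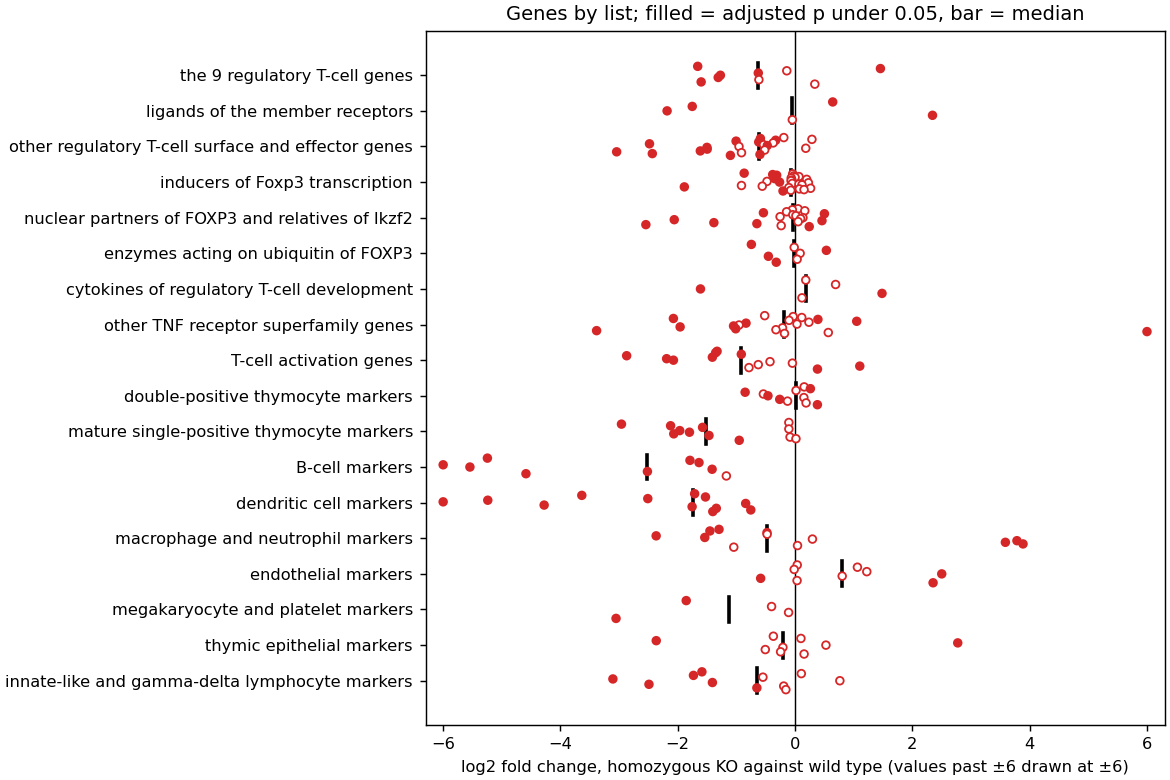
The horizontal axis is the edgeR log2 fold change of homozygous KO against wild type for each tested gene of the lists on the vertical axis, with values past 6 in size drawn at 6. Filled points have an adjusted p under 0.05 and the bar is the median of the list, which was -0.63 for the 9 regulatory T-cell genes, -0.62 for the other regulatory T-cell genes, -1.52 for mature single-positive markers and -1.73 for dendritic cell markers.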

How the data were processed

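Total RNA of the thymus was depleted of ribosomal RNA, and stranded libraries were sequenced on an Illumina NovaSeq, per the labels. The authors deposited raw read counts per gene in 1 table with 1 column per animal. The submitters' processing notes name CASAVA, STAR (2.4.1d), HTSeq (0.6.1p1) and the builds NCBIM37 and mm9, whereas the study's methods describe a BWA-based pipeline with HTSeq for RNA-seq with a human reference and do not describe mapping of the mouse libraries. The strand setting and the annotation release are not given in the sources used here. Symbols (30204 of 34467 Ensembl identifiers), overlaps and exon lengths came from GENCODE for GRCm38, another build, so no positions of counted genes are given, and the positions of the promoters are those of RefSeq on GRCm38.p6.

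Columns were matched to samples by animal and library number, and groups came from the titles. In the 2 wild types with 1 wt word in the title the column name adds het, and the group in the title was kept. Nothing beyond the animal numbers says how animals were related or handled, and p-values measure the spread between these animals. Counts were scaled by TMM, filtered with filterByExpr and tested in edgeR 4.0.16 (R 4.3.3) with glmQLFit and glmQLFTest in 1 fit over all 10 libraries. The common biological coefficient of variation was 0.207. The SE was the absolute log2 fold change divided by the square root of F. The quantities relative to a reference used log2 CPM with a prior count of 0.5. The study gives no differential test for these libraries. Alternatives changed the scaling, the filter, the tool (DESeq2 1.42.0), the libraries, the controls and the terms of the model.

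The 9 genes and the lists were chosen with earlier results of these data known. Named were all 9 genes, all ligands, the 5 profiles nearest to Foxp3 and, of every other list, up to 4 genes in each direction called in homozygous KO against wild type or between the knockouts, by size of the fold change. A few marker genes that this rule names are not reported here. The single-positive and inducer lists share Foxo1, and Tgfb1 and Tnfrsf1b are each on 2 lists.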

Additional observations from a re-analysis of the deposited data

How the results depend on the processing

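The directions of all 9 genes in both comparisons of homozygous KO held in every alternative fit run, and so did the calls of Foxp3, Icos, Tnfrsf4 and Tnfrsf18. The number of the 9 genes called lay between 4 and 8 against wild type, at 5 between the knockouts and at 0 in heterozygous KO against wild type. The calls that depended on the processing were those of Ikzf4, Ctla4, Tnfrsf9, Ikzf2 and Lrrc32 against wild type, with values in the report, and the cause was not tested. Over all tested features, 2670 instead of 5030 were called against wild type when only the wild types with 1 wt word in the title served as controls, a setting with fewer samples. In heterozygous KO against wild type DESeq2 called 71 and a fit with replicate block called 5, instead of 3. Leaving out 1 library gave 2 to 6 such calls (6 without wild type replicate 4) and 2153 to 2990 instead of 3342 between the knockouts (2153 without heterozygous KO replicate 3).

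In the alternative fits run, the 9 genes changed sign only in heterozygous KO against wild type, where none was called, and within the animal block from 56 to 63, which is a difference of means and no fit, Tnfrsf9 differed between homozygous KO and wild type by 0.05. A term for the animal blocks gave log2 fold changes of 0.18 for Foxp3, -0.24 for Ctla4, 0.0447 for Ikzf2, -0.13 for Tnfrsf18 and 0.0403 for Lrrc32. A sex term gave 0.10 for Lrrc32. The wild types with 2 wt words as controls gave 0.0545 for Lrrc32, and those with 1 gave 0.12 for Foxp3, -0.0294 for Ctla4 and 0.0105 for Ikzf2. With 1 library left out, Foxp3 lay between -0.22 and 0.0077, Ctla4 between -0.0217 and 0.21, Ikzf2 between -0.0767 and 0.0273, Tnfrsf18 between -0.0376 and 0.0938, Tnfrsf4 between -0.0058 and 0.15, and Lrrc32 between -0.18 and 0.16. The replicate numbers of the titles did not pair the samples (correlations of deviations from the group means between -0.09 and 0.20). The replicate block gave -0.0046 for Tnfrsf4 in heterozygous KO, called 7 of the 9 genes against wild type, Tnfrsf9 (-0.77, edgeR adjusted p 0.0333) being the added one, and 5 between the knockouts, with 4934 and 3293 calls over all features.

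Foxp3 relative to the mature single-positive genes differed between homozygous KO and wild type by -0.44 to -0.13 with 1 library left out, and the differences relative to Cd3e alone (-1.60) and Cd4 alone (-1.84) were past the threshold. For heterozygous KO against wild type the range was -0.17 to 0.10, and relative to Cd4 alone the difference was 0.0523. Depth limited the scarcest genes, such as Tnfsf4 and Tnfsf18, and not the 9 genes, each of which had more counts in every library than the limit of 3.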

Other observations

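The neighbours of Foxp3 and Tnfrsf18 were counted because their annotated bodies overlap those genes, and they were chosen after the data were seen. Flicr, a noncoding RNA gene that overlaps Foxp3 on the same strand, had 1.33, 1.20, 1.43 and 0.520 CPM in wild type, 1.18, 1.07 and 0.970 in heterozygous KO and 0.712, 0.548 and 0.576 in homozygous KO. The difference of homozygous KO from wild type was -0.86 on the log2 scale (SE 0.32), with an unadjusted p of 0.0222 and an adjusted p of 0.0747 in edgeR. Wild type replicate 4, which had the lowest Foxp3 level of its group, also had the lowest Flicr level. Ppp1r3f, a subunit gene of protein phosphatase 1 on the other strand with exons apart from those of Foxp3, fell by 0.64 on the log2 scale against wild type (SE 0.17, edgeR adjusted p 0.016). Gm16008, antisense to Tnfrsf18, differed by -0.71 on that scale (SE 0.47, edgeR adjusted p 0.3).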
